A study of Mus musculus with 8 samples.

Results

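The 32 genes described here belong to the interferon response and to the processing of antigens for MHC class I. They were listed by name, as interferon-stimulated genes of 7 kinds (IFIT, viperin and other antiviral effectors, MX GTPases, the OAS family, transcription factors, nucleic acid sensors, PARP enzymes and guanylate-binding proteins) with 3 genes of class I antigen processing as the eighth kind. The rule of the list used no measured value, but the members were chosen with earlier results of these data known. All 32 were among the 23467 genes with a symbol of their own in the table. RNA of cultured mouse liver cells was measured by RNA sequencing in 8 libraries. The cells came from livers at E14.5 on a mixed B6;129 background. Control cells were labelled wild type. The other cells carried the genotype Lats1-/-;Lats2f/fl;Alb-cre, called L1L2_Alb, in which *Lats1* is lost in every cell and *Lats2* is deleted by a Cre under the albumin promoter, so that deletion of *Lats2* is limited to cells of the hepatoblast lineage. LATS1 and LATS2 are the kinases of the Hippo pathway that hold back the co-activators YAP and TAZ. Each genotype was sequenced in 3 stages, as hepatoblasts cultured on collagen (iHB), as cells differentiated to hepatocytes with oncostatin M at 12.5 ng/ml for 5 days per the labels (iHP), and as cells differentiated to biliary epithelial cells on Matrigel for 14 days (iBEC). There was 1 control library in each stage, 1 L1L2_Alb library of iHB, and 2 L1L2_Alb libraries each of iHP and iBEC. No source used here states whether the 2 libraries of a pair were from different embryos or cultures, so that a p-value measures only the spread between these libraries, which may be technical.

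Interferons are secreted proteins that bind receptors on the cell surface. The receptors activate JAK kinases such as JAK1 and TYK2, and these phosphorylate transcription factors such as STAT2. STAT2 and IRF9 are part of a complex that binds the interferon-stimulated response element in the promoters of its targets, whereas the gamma-activated site is best known from the response to interferon gamma. Many of the targets block viral replication, sense viral nucleic acids or sharpen the display of peptides on MHC class I molecules, and hepatocytes, biliary cells and the macrophages of the liver all respond to interferon.

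The libraries held between 18436865 and 33229075 reads, as recovered from the deposited values. The values were RPKM, in which the reads of a gene are scaled to its length and to the depth of the library. The 2 targeted genes were not at lower RNA levels in the libraries labelled L1L2_Alb than in the control of their stage, except for *Lats1* in the second L1L2_Alb iHP library (7.12 RPKM against 11.2 RPKM). *Lats1* was at 5.38 to 11.2 RPKM in the 3 control libraries and at 7.12 to 22.7 RPKM in the 5 libraries labelled L1L2_Alb, and *Lats2* was at 6.90 to 10.1 RPKM against 10.9 to 27.6 RPKM. An allele that makes no protein can still be transcribed, so these levels do not check the labels. The YAP target *Ctgf* was higher in the library labelled L1L2_Alb than in the control of its stage in each of the 5 cases, at 522.7 and 2469 RPKM in control and L1L2_Alb iHB, 387 RPKM against 1183 and 1168 RPKM in iHP, and 201 RPKM against 412 and 771 RPKM in iBEC. The cultures held RNA of leukocytes, with *Ptprc*, which encodes the pan-leukocyte antigen CD45, between 3.59 and 28.0 RPKM. These levels differed between libraries and are given with the members' values at the end.

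The response element can be read in the promoters of many of the members. RefSeq promoters (250 bases before and 50 after the start, mouse build GRCm38.p6) were at hand for 23 of the 32 members. The core of the response element, GAAANNGAAA on either strand (TTTCNNTTTC on the other strand), was present in 11 of these 23 members and in 3.99% of all 27025 genes with a promoter. The letters of the gamma-activated site, TTCNNNGAA, which read the same on both strands, were present in 5 of the 23 (*Ifit2*, *Ifi35*, *Bst2*, *Irf1* and *Psmb8*) and in 9.55% of all genes, and in *Bst2* they overlap the response element. The stretches that follow are shown because they carry the match upstream of the start of 8 members whose levels the results turn on. They are written 5′ to 3′ in the direction of the gene, with the matching bases in capitals, and overlapping matches run into each other.
*Ifit1* (chr19:34640760-34640838, + strand): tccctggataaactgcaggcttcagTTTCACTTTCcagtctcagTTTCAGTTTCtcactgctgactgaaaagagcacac
*Ifit3* (chr19:34583348-34583441, + strand): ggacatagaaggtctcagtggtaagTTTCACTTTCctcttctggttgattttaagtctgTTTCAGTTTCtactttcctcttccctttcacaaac
*Rsad2* (chr12:26456538-26456597, - strand): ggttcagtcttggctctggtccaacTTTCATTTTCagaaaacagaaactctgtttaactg
*Isg15* (chr4:156200850-156200921, - strand): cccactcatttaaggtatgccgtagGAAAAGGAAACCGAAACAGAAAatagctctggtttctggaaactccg
*Bst2* (chr8:71537562-71537627, - strand): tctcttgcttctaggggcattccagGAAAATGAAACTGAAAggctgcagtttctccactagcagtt
*Oas3* (chr5:120777700-120777759, - strand): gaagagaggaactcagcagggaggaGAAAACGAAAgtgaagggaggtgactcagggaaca
*Gbp2* (chr3:142620579-142620638, + strand): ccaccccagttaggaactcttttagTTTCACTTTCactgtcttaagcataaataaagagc
*Stat2* (chr10:128270251-128270310, + strand): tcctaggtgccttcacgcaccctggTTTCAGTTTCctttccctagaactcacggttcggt
*Isg15* held 3 overlapping matches and *Bst2* 2 overlapping matches, while the matches of *Ifit1* and *Ifit3* were apart from each other. The other 3 members with a match were *Gbp3*, *Ifih1* and *Ddx58*, the last 2 of them downstream of the start. *Xaf1*, *Ifi44*, *Oasl1*, *Oasl2*, *Irf7*, *Irf9*, *Tap1* and *Psmb9* held neither set of letters in this window. A match is a description of the sequence and not a measured site.

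Most members were at their highest level in control iHB. Of the 32 members, 23 had the highest of their 8 values there, including 18 of the 27 members with a mean of at least 1 RPKM, while control iHB was the highest library for 25.5% of all 13421 genes with such a mean. The other 9 were *Usp18* and *Ddx58* (highest in the second L1L2_Alb iHP library), *Ifi35*, *Bst2* and *Xaf1* (L1L2_Alb iHB), *Dhx58* and *Tap1* (first L1L2_Alb iBEC library), *Psmb9* (second L1L2_Alb iBEC library) and *Stat2* (control iBEC). The second L1L2_Alb iHP library was the lowest of the 8 for 16 members and the first for 8 members. The median level of the 32 members was 6.45 and 3.42 RPKM in control and L1L2_Alb iHB, 2.74 RPKM in control iHP, 1.94 and 1.80 RPKM in L1L2_Alb iHP, 1.72 RPKM in control iBEC, and 2.52 and 2.82 RPKM in L1L2_Alb iBEC. The plot of the members by library shows this order. The table holds bulk cultures, in which fewer cells of a type and less RNA per cell cannot be told apart.

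**Figure D1:**
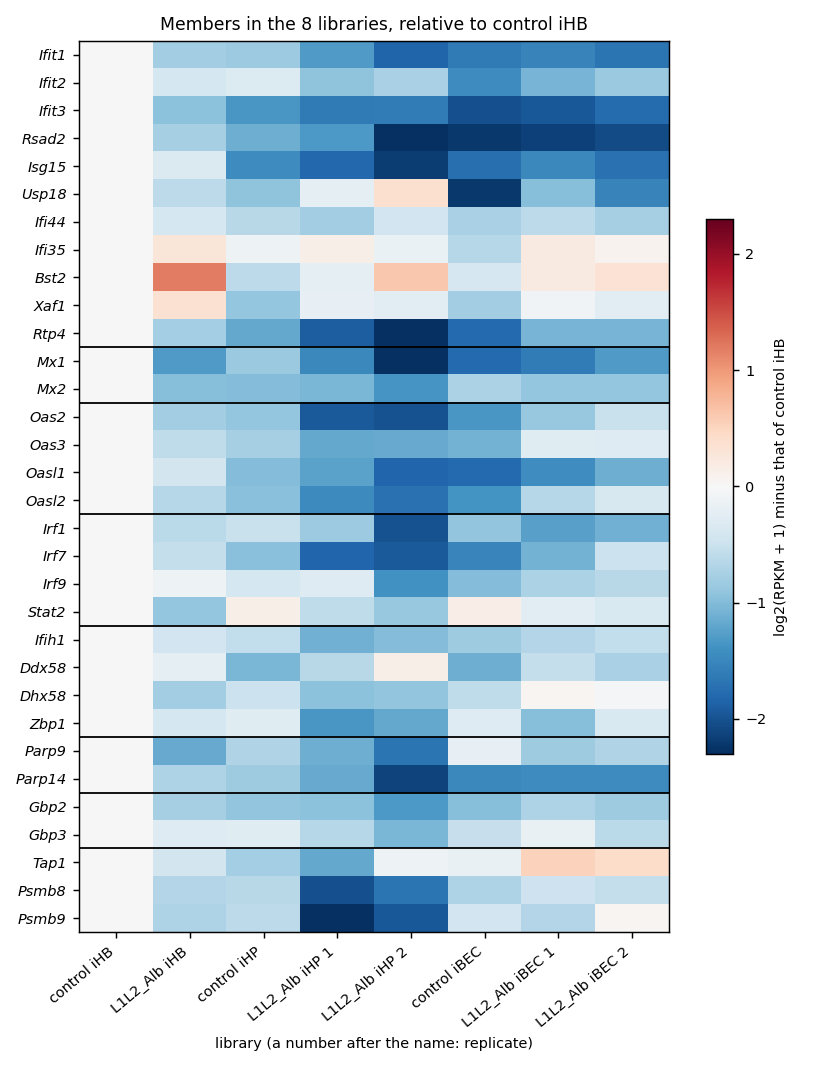
Levels of the 32 members (rows, grouped by kind with black lines between kinds) in the 8 libraries (columns), coloured by log2(RPKM + 1) minus that of control iHB. Blue marks a lower and red a higher level than control iHB; most rows are blue, and deepest in the L1L2_Alb iHP and control iBEC columns, while *Bst2* is red in L1L2_Alb iHB and *Tap1* in L1L2_Alb iBEC.

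L1L2_Alb was then compared with the control of the same stage. Differences are given on the scale of log2(RPKM + 1), on which 1 is a 2-fold change for a gene of high level and the change of a gene under a few RPKM is understated. In iHB, 29 of the 32 members were lower in the library labelled L1L2_Alb and 3 (*Ifi35*, *Bst2* and *Xaf1*) were higher, with a median difference of -0.62 over the members and -0.09 over all 13421 genes. In iHP, 24 members were lower in both libraries labelled L1L2_Alb, 4 (*Usp18*, *Bst2*, *Xaf1* and *Ddx58*) were higher in both, and 4 went opposite ways. The median differences in the 2 iHP libraries were -0.39 and -0.77 over the members and 0.01 and -0.03 over all genes. In iBEC, 23 members were higher in both libraries labelled L1L2_Alb, 5 (*Mx2*, *Irf1*, *Stat2*, *Zbp1* and *Parp9*) were lower in both, and 4 went opposite ways. There the median differences were 0.27 and 0.37 over the members but also 0.22 and 0.26 over all genes, close to those of the members.

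A difference of at least 2-fold on this scale was less frequent. In iHB, *Mx1* and *Parp9* were past 2-fold lower, which is 2 of the 27 members with a mean of at least 1 RPKM, and 8.99% of all such genes were past that limit. In iHP, *Oas2*, *Psmb8* and *Psmb9* were past 2-fold lower in both libraries, 3 of 27, and 8.26% of all genes were. In iBEC, 0 of 27 members were past 2-fold higher in both libraries, and 4.19% of all genes were. These differences within a stage were not tested. The plot of the differences shows each member in the 5 libraries.

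**Figure D2:**
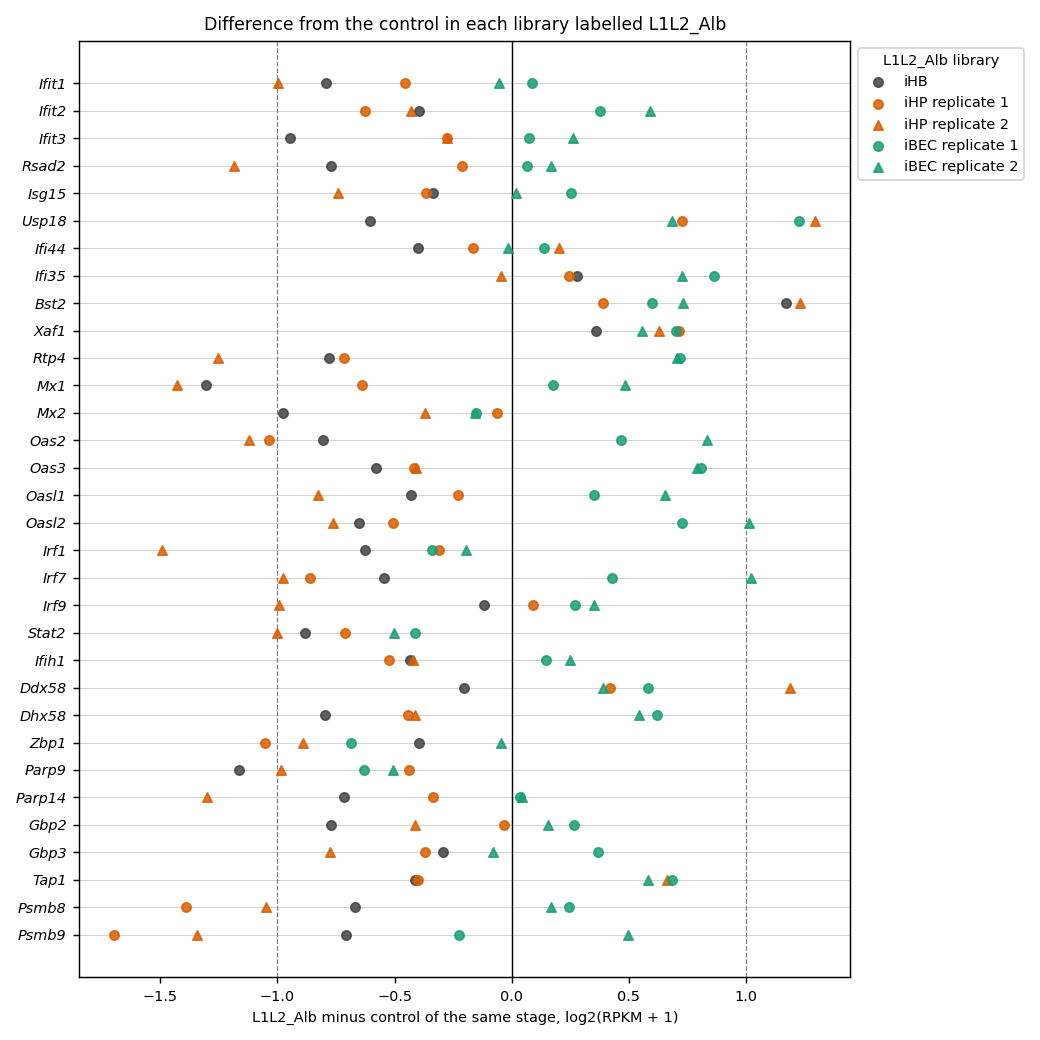
Difference of each library labelled L1L2_Alb from the control library of its stage (x axis, log2(RPKM + 1)) for the 32 members (y axis). Points are single libraries (grey iHB, orange iHP, green iBEC; triangles are replicate 2) and dashed lines mark 2-fold; for many members the grey and orange points lie left of 0 and the green points right of it, whereas *Bst2* and *Xaf1* have all 5 points right of 0.

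In 16 members both L1L2_Alb iHP libraries were below control iHP and both L1L2_Alb iBEC libraries above control iBEC, an order held by 15 of the 27 members with a mean of at least 1 RPKM and by 14.4% of all such genes. The 16 were *Ifit2*, *Ifit3*, *Rsad2*, *Isg15*, *Rtp4*, *Mx1*, *Oas2*, *Oas3*, *Oasl1*, *Oasl2*, *Irf7*, *Ifih1*, *Dhx58*, *Parp14*, *Gbp2* and *Psmb8*. With upper-quartile scaling the count was 13 (12 of 27, and 10.6% of all genes) and with quantile normalization it was 8 (7 of 27, and 5.603% of all genes). These scalings moved the median difference of all genes in iBEC from 0.22 and 0.26 to 0.09 and 0.05 and to -0.0041 and -0.0074. When the difference of the genotype effect between stages was tested in all 6 conditions (moderated F test in limma), 0 of 27 members and 0.0% of all genes were past an adjusted p of 0.05. The unadjusted p was under 0.05 for 3 of 27 members and for 5.46% of all genes, with the smallest member p of 0.0295 for *Oas2* (adjusted p = 0.792, limma). Set directly against each other, the L1L2_Alb effect in iBEC minus that in iHP had a positive estimate for 23 of 27 members, with a median of 0.74 over the members and 0.24 over all genes. It was 1.73 ± 0.53 (SE) for *Oas2*, 1.70 ± 0.56 for *Rtp4*, 1.64 ± 0.57 for *Irf7* and 1.66 ± 0.61 for *Psmb9*. None of the 27 passed, with a smallest adjusted p of 0.428 in limma and 7 of 27 members and 7.56% of all genes at an unadjusted p under 0.05.

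Across the stages, the genotype effect was fitted on all 8 libraries with the stage as a block. *Stat2*, which encodes a subunit of the complex that binds the response element, fell by 0.72 ± 0.18 (log2, SE) in the libraries labelled L1L2_Alb and was lower in 5 of 5 (adjusted p = 0.0402, limma). *Bst2*, which encodes tetherin, a membrane protein that keeps new virions on the cell, rose by 0.86 ± 0.22 and was higher in 5 of 5 (adjusted p = 0.0492, limma). These were 1 member lower and 1 higher of 27, while 3.37% of all genes were called lower and 6.2% higher, so the share of members called was near that of all genes. *Parp9* missed the threshold at -0.78 ± 0.22 (adjusted p = 0.0607, limma) with lower values in 5 of 5, as did *Xaf1* at 0.57 ± 0.19 (adjusted p = 0.107, limma) with higher values in 5 of 5. The estimate was negative for 21 of the 27 members, with a median of -0.22 against 0.06 over all genes. An unadjusted p under 0.05 in limma was found for 4 of 27 members and for 26.3% of all genes. The median of the members was not steady over the stages, as the values in single stages show. Both calls stood close to the threshold. *Stat2* was called under 6 of 14 other settings (adjusted p from 0.0160 to 0.208) and *Bst2* under 3 of 14 (adjusted p from 0.0286 to 0.215), and neither was called when either L1L2_Alb iBEC library or any stage was left out.

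**Figure D3:**
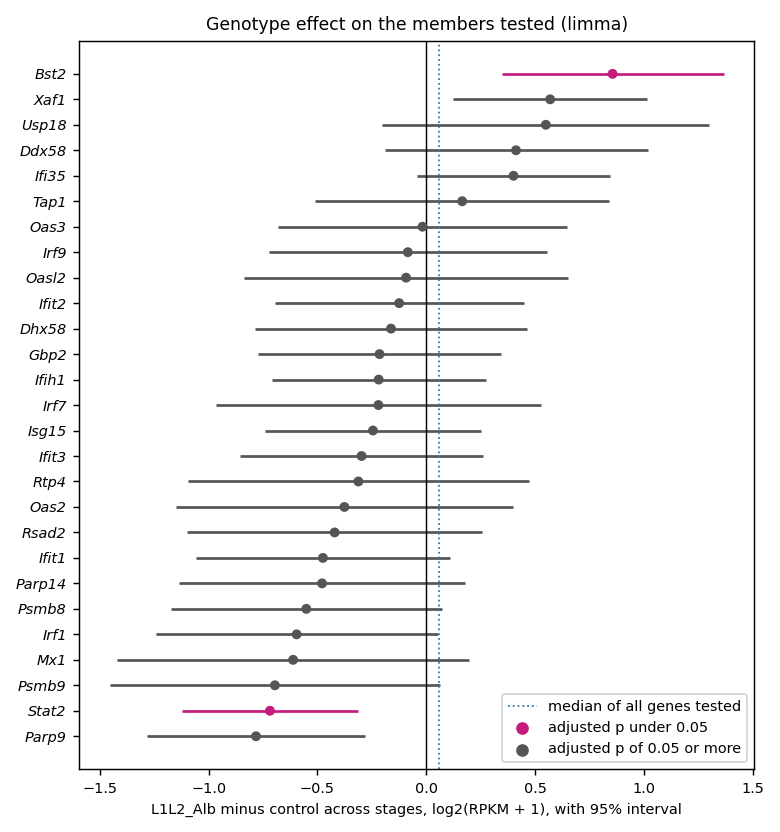
Genotype effect across stages for the 27 members tested (y axis), as the limma estimate of L1L2_Alb minus control on the log2(RPKM + 1) scale (x axis, points) with its 95% interval (lines); the dotted line is the median of all genes tested. The intervals of *Bst2*, *Xaf1*, *Stat2* and *Parp9* exclude 0, and only *Bst2* and *Stat2* (pink) had an adjusted p under 0.05.

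The stages were also compared within the controls, with 1 library each and no test. Control iHB was above both differentiated controls for 31 of 32 members, *Stat2* being the exception. The median difference over the members was -0.80 for control iHP minus control iHB (-0.18 over all genes) and -0.98 for control iBEC minus control iHB (-0.44 over all genes). In control iHP, 5 of 27 members were past 2-fold lower than in control iHB (*Ifit3*, *Rsad2*, *Isg15*, *Rtp4* and *Ddx58*), against 1.65% of all genes. In control iBEC, 14 of 27 were past 2-fold lower than in control iHB, against 14.9% of all genes, and 3 of 27 (*Ifit2*, *Rsad2* and *Usp18*) were past 2-fold lower than in control iHP, against 8.98%. After upper-quartile scaling, which brought the median difference of all genes between control iBEC and control iHB from -0.44 to -0.09, 28 of the 32 members were still lower in control iBEC, with a median of -0.69.

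In the fit over both genotypes, 3 members fell from iHB to iBEC. *Isg15* fell by 1.44 ± 0.27 (adjusted p = 0.0206), *Rsad2* fell by 1.69 ± 0.37 (adjusted p = 0.0362) and *Ifit3* fell by 1.39 ± 0.30 (adjusted p = 0.0362), all by limma, and 2.78% of all genes were called lower. The estimate was negative for 22 of the 27 members, with a median of -0.68 against -0.25 over all genes. The number of members called was 7 without the second L1L2_Alb iHP library, 1 without the first L1L2_Alb iBEC library and 0 without the second. From iHB to iHP, 0 of 27 members and 0.0% of all genes were called by limma. There 26 of 27 estimates were negative, 14 of 27 members had an unadjusted p under 0.05 (8.63% of all genes), the median was -0.74 against -0.15 over all genes, and the lowest estimate was that of *Isg15* at -1.61 ± 0.27 (adjusted p = 0.165, limma). From iHP to iBEC, 0 of 27 members were called by limma, against 4.12% of all genes, and 5 of 27 members had an unadjusted p under 0.05, against 22.2% of all genes. The comparisons of iHP and iBEC with iHB share the iHB libraries.

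Between the 2 differentiated stages of the libraries labelled L1L2_Alb, *Psmb9* rose from iHP to iBEC by 1.81 ± 0.35 (adjusted p = 0.0432, limma). It was the only member of 27 past the threshold, and 3.16% of all genes were called higher. Estimates for *Psmb8* (1.35 ± 0.29, adjusted p = 0.0567) and *Oas2* (1.27 ± 0.31, adjusted p = 0.0736) missed it in limma, and *Usp18* had the lowest estimate at -1.34 ± 0.35 (adjusted p = 0.0918, limma). Both L1L2_Alb iBEC libraries lay above both L1L2_Alb iHP libraries for 17 of the 32 members and below both for 2 (*Usp18* and *Ifit3*). Where the mean level reached 1 RPKM, the order was above for 14 of 27 members and 25.4% of all genes, and below for 2 of 27 members and 24.6% of all genes. No member was called when any of the 4 libraries was left out.

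Among the antiviral effectors, the IFIT proteins, which bind foreign RNA and block its translation, had their highest levels in control iHB. *Ifit1* was at 3.54 and 1.62 RPKM in control and L1L2_Alb iHB, 1.53 in control iHP, 0.843 and 0.267 in L1L2_Alb iHP, 0.468 in control iBEC, and 0.557 and 0.413 in L1L2_Alb iBEC. *Ifit2* was at 4.89 and 3.48 RPKM in control and L1L2_Alb iHB, 3.76 RPKM against 2.09 and 2.53 RPKM in iHP, and 1.16 RPKM against 1.80 and 2.25 RPKM in iBEC. *Ifit3* was at 6.74 and 3.02 RPKM in iHB, 2.06 RPKM against 1.52 and 1.53 RPKM in iHP, and 0.904 RPKM against 1.01 and 1.28 RPKM in iBEC. All 3 were thus lower in L1L2_Alb than in control iHB and iHP, and control iHB exceeded control iBEC 7.57-fold for *Ifit1*, 4.22-fold for *Ifit2* and 7.45-fold for *Ifit3*. These 3 genes are neighbours, and reads of *Ifit3* can be shared with a near-identical copy, so that its level is uncertain.

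*Rsad2* encodes viperin, an enzyme that makes a chain-terminating nucleotide. Its level was 6.17 and 3.20 RPKM in control and L1L2_Alb iHB, 2.31 RPKM in control iHP against 1.86 and 0.459 RPKM in L1L2_Alb iHP, and 0.541 RPKM in control iBEC against 0.612 and 0.731 RPKM in L1L2_Alb iBEC. Control iHB was 11.4-fold above control iBEC, and the 3 iBEC libraries lay close together. *Isg15*, a ubiquitin-like protein that is joined to other proteins during the response, was at 14.6 and 11.3 RPKM in control and L1L2_Alb iHB and between 2.42 and 4.73 RPKM in the other 6 libraries, so that the 2 iHB libraries did not overlap the rest. *Rtp4*, a chaperone with antiviral activity, was at 6.84 and 3.57 RPKM in control and L1L2_Alb iHB, 2.45 RPKM against 1.10 and 0.448 RPKM in iHP, and 1.28 RPKM against 2.75 and 2.72 RPKM in iBEC. The L1L2_Alb libraries of *Rtp4* lay below the control in iHP and above it in iBEC.

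A few effectors went the other way in the libraries labelled L1L2_Alb. *Bst2* was at 88.3 and 200.2 RPKM in control and L1L2_Alb iHB, 57.7 RPKM against 76.0 and 136.6 RPKM in iHP, and 66.9 RPKM against 101.8 and 111.8 RPKM in iBEC. It was the most abundant member in every library and lay above the control in all 5 cases, from 1.32-fold to 2.37-fold. *Xaf1*, a pro-apoptotic partner of the inhibitor of apoptosis XIAP, was at 2.60 and 3.61 RPKM in iHB, 0.935 RPKM against 2.17 and 1.99 RPKM in iHP, and 1.08 RPKM against 2.38 and 2.05 RPKM in iBEC. *Usp18*, the protease that removes ISG15 from proteins and dampens receptor signalling, was at 16.4 and 10.4 RPKM in iHB, 8.13 RPKM against 14.1 and 21.4 RPKM in iHP, and 2.75 RPKM against 7.79 and 5.02 RPKM in iBEC. The L1L2_Alb libraries of *Usp18* thus lay above the control in iHP and iBEC but not in iHB. *Ifi35* ranged from 12.1 RPKM in control iBEC to 23.9 RPKM in L1L2_Alb iHB. It lay above the control in 4 of the 5 cases, 1.88-fold and 1.71-fold in iBEC, and slightly below it in the second L1L2_Alb iHP library. *Ifi44* had 62 reads in control iHB and between 0 and 27 reads in the other libraries, too few for a comparison between them.

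The MX proteins are dynamin-like GTPases that trap viral ribonucleoproteins. *Mx1* was at 3.87 and 0.972 RPKM in control and L1L2_Alb iHB, 1.69 RPKM against 0.731 RPKM and a listed 0 in iHP, and 0.417 RPKM against 0.598 and 0.979 RPKM in iBEC. *Mx2* was at 1.87 and 0.461 RPKM in iHB, 0.443 RPKM against 0.381 and 0.116 RPKM in iHP, and 0.734 RPKM against 0.559 and 0.555 RPKM in iBEC. Both had control iHB as their highest and the second L1L2_Alb iHP library as their lowest value, and in L1L2_Alb iHB they were 3.98-fold and 4.06-fold below the control. *Mx2* had a mean below 1 RPKM and was not tested.

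The OAS proteins sense double-stranded RNA and, as active enzymes, make the 2-5A messenger that turns on RNase L. *Oas2* was at 4.60 and 2.20 RPKM in control and L1L2_Alb iHB, 2.02 RPKM against 0.477 and 0.389 RPKM in iHP, and 1.21 RPKM against 2.05 and 2.93 RPKM in iBEC. *Oas3* was at 2.29 and 1.20 RPKM in iHB, 0.946 RPKM against 0.460 and 0.468 RPKM in iHP, and 0.555 RPKM against 1.72 and 1.69 RPKM in iBEC. *Oasl2* was at 3.57 and 1.91 RPKM in iHB, 1.36 RPKM against 0.657 and 0.389 RPKM in iHP, and 0.758 RPKM against 1.91 and 2.54 RPKM in iBEC. In each of the 3 genes the L1L2_Alb libraries were below the control in iHP and above it in iBEC with no overlap, and the 2 libraries of each pair differed by less from each other than either did from its control on the log2(RPKM + 1) scale. The ratio of L1L2_Alb to control was 0.236 and 0.192 in iHP and 1.70 and 2.43 in iBEC for *Oas2*, and 0.486 and 0.494 in iHP and 3.10 and 3.04 in iBEC for *Oas3*. *Oasl1*, an OAS-like protein without the enzymatic activity, rested on 3 reads in the second L1L2_Alb iHP library and 7 reads in control iBEC, against 168 reads in control iHB, and was not tested.

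The transcription factors of the response were at higher levels than most effectors. *Irf7*, which drives the genes of type I interferons, was at 11.3 and 7.43 RPKM in control and L1L2_Alb iHB, 5.33 RPKM against 2.49 and 2.21 RPKM in iHP, and 3.32 RPKM against 4.80 and 7.75 RPKM in iBEC. *Irf1*, an activator of both antiviral and antigen-processing genes, was at 24.4 and 15.5 RPKM in iHB, 16.7 RPKM against 13.3 and 5.29 RPKM in iHP, and 12.4 RPKM against 9.63 and 10.7 RPKM in iBEC. The 2 iHP libraries of *Irf1* differed more from each other than the first did from its control. *Irf9*, the DNA-binding subunit of the complex with STAT2, was at 15.7 and 14.4 RPKM in iHB, 11.7 RPKM against 12.5 and 5.39 RPKM in iHP, and 7.41 RPKM against 9.13 and 9.71 RPKM in iBEC. *Stat2* was at 21.0 and 10.9 RPKM in iHB, 23.1 RPKM against 13.8 and 11.0 RPKM in iHP, and 23.5 RPKM against 17.4 and 16.4 RPKM in iBEC. For *Stat2* the 3 control libraries, 21.0 to 23.5 RPKM, did not overlap the 5 libraries labelled L1L2_Alb, 10.9 to 17.4 RPKM, and the controls did not follow the order of stages seen in the other members.

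Of the nucleic acid sensors, *Ifih1* encodes MDA5 and *Ddx58* encodes RIG-I, helicases that detect viral RNA in the cytoplasm, and *Dhx58* encodes their relative LGP2. *Ifih1* was at 4.81 and 3.31 RPKM in control and L1L2_Alb iHB, 2.91 RPKM against 1.72 and 1.92 RPKM in iHP, and 2.31 RPKM against 2.66 and 2.93 RPKM in iBEC. *Ddx58* was at 8.56 and 7.29 RPKM in iHB, 3.58 RPKM against 5.14 and 9.45 RPKM in iHP, and 3.37 RPKM against 5.53 and 4.72 RPKM in iBEC. The L1L2_Alb iHP libraries were thus below the control for MDA5 and above it for RIG-I. *Dhx58* was at 4.01 and 1.88 RPKM in iHB, 2.56 RPKM against 1.62 and 1.67 RPKM in iHP, and 2.36 RPKM against 4.16 and 3.90 RPKM in iBEC. *Zbp1*, a sensor of Z-form nucleic acids that triggers necroptosis, ranged from 0.145 RPKM in the first L1L2_Alb iHP library to 1.89 RPKM in control iHB and was not tested.

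PARP9 and PARP14 are ADP-ribosyltransferase family members, of which PARP9 acts with the ubiquitin ligase DTX3L. *Parp9* was at 8.74 and 3.35 RPKM in control and L1L2_Alb iHB, 5.05 RPKM against 3.47 and 2.05 RPKM in iHP, and 7.60 RPKM against 4.55 and 5.06 RPKM in iBEC. *Parp14* was at 7.66 and 4.27 RPKM in iHB, 3.89 RPKM against 2.88 and 0.984 RPKM in iHP, and 2.09 RPKM against 2.16 and 2.19 RPKM in iBEC. *Parp9* was below its control in all 3 stages, whereas the iBEC libraries of *Parp14* were nearly equal. The guanylate-binding proteins are GTPases that attack the vacuoles of intracellular pathogens. *Gbp2* ranged from 0.822 RPKM in the second L1L2_Alb iHP library to 3.54 RPKM in control iHB, with 1.31 RPKM in control iBEC against 1.78 and 1.57 RPKM in L1L2_Alb iBEC. *Gbp3*, below the limit for a test, had 86 reads in control iHB and 2 reads in the second L1L2_Alb iHP library.

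PSMB8 and PSMB9 are catalytic subunits that replace PSMB5 and PSMB6 in the immunoproteasome, and TAP1 is a subunit of the transporter that carries peptides into the endoplasmic reticulum. *Psmb8* was at 22.3 and 13.6 RPKM in control and L1L2_Alb iHB, 13.9 RPKM against 4.70 and 6.22 RPKM in iHP, and 13.2 RPKM against 15.8 and 14.9 RPKM in iBEC. *Psmb9* was at 13.8 and 8.09 RPKM in iHB, 8.78 RPKM against 2.02 and 2.85 RPKM in iHP, and 9.86 RPKM against 8.29 and 14.3 RPKM in iBEC. For both, the 2 L1L2_Alb iHP libraries were the lowest of the 8. *Tap1* was at 7.90 and 5.68 RPKM in iHB, 4.18 RPKM against 2.93 and 7.20 RPKM in iHP, and 6.95 RPKM against 11.8 and 10.9 RPKM in iBEC, so that the 2 iHP libraries lay on either side of their control although *Tap1* and *Psmb9* are neighbouring genes.

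RPKM is a level per length, so each immunoproteasome subunit can be set against the constitutive subunit that it replaces, and this ratio does not depend on the scaling of a library. *Psmb8* was at 18.9% and 10.8% of *Psmb5* in iHB, 12.7% in control iHP against 4.88% and 3.78% in L1L2_Alb iHP, and 12.4% in control iBEC against 15.9% and 10.05% in L1L2_Alb iBEC. *Psmb9* was at 9.83% and 4.99% of *Psmb6* in iHB, 7.44% against 1.74% and 1.56% in iHP, and 8.32% against 7.54% and 9.34% in iBEC. *Psmb10*, the third such subunit and not a member, was at 16.0% and 8.04% of *Psmb7* in iHB, 12.6% against 3.67% and 4.25% in iHP, and 12.8% against 11.6% and 9.88% in iBEC. All 3 ratios were lower in L1L2_Alb than in control in iHB and iHP, and in L1L2_Alb iHP they were the lowest of the 8 libraries. In iBEC the ratios of *Psmb8* and *Psmb9* lay on either side of the control. The constitutive subunits themselves were between 96.3 and 387 RPKM, and 0 of the 3 passed the threshold for the genotype effect in limma. An unadjusted p under 0.05 was found for 0 of the 3, against 26.3% of all genes. In the second L1L2_Alb iHP library the denominators were above control iHP, at 164 against 109 RPKM for *Psmb5*, 183 against 118 RPKM for *Psmb6* and 387 against 188 RPKM for *Psmb7*. The low ratios of that library thus reflect the constitutive subunit as well. In the first L1L2_Alb iHP library the 3 were at 96.3, 116 and 210 RPKM.

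**Figure D4:**
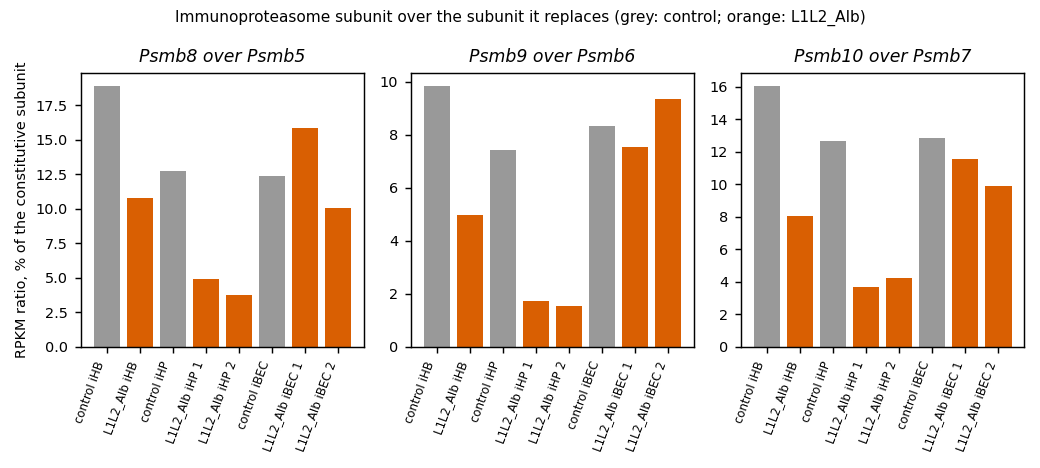
RPKM of an immunoproteasome subunit as a percentage of the constitutive subunit it replaces (y axis, starting at 0) in the 8 libraries (x axis; 1 bar per library, grey control, orange L1L2_Alb). In each of the 3 pairs the 2 L1L2_Alb iHP bars are the lowest, at 3.78% and 4.88% for *Psmb8*, 1.56% and 1.74% for *Psmb9*, and 3.67% and 4.25% for *Psmb10*.

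Most ligands of the pathway were at or near 0. Of 16 interferon genes in the table, 13 were at 0 in every library, among them *Ifnb1*, *Ifng*, *Ifnl2* and *Ifnl3*. *Ifna4* was at 0.168 RPKM in the first L1L2_Alb iHP library and at 0 in the others. *Ifnk*, interferon kappa, was at 2.40 RPKM in control iHB, 2.13 RPKM in control iHP and between 0.754 and 1.14 RPKM in the other 6 libraries. It was lower in 5 of 5 libraries labelled L1L2_Alb, and the genotype effect was not called (-0.54 ± 0.23, adjusted p = 0.174, limma). *Ifnz* was between 0.211 and 1.62 RPKM. The receptors were present throughout. *Ifnar1* was at 9.77 to 15.9 RPKM, *Ifnar2* at 42.8 to 63.1 RPKM, *Ifngr1* at 36.2 to 87.2 RPKM and *Ifngr2* at 19.0 to 35.1 RPKM. *Il10rb*, a receptor chain shared by lambda interferons and interleukin 10, rose by 0.85 ± 0.17 in the libraries labelled L1L2_Alb (adjusted p = 0.0226, limma, higher in 5 of 5). It was the only one of 6 receptor genes called for genotype, while 6.2% of all genes were called higher and 3.37% lower. *Ifnlr1*, the other chain of the lambda receptor, fell from iHB to iBEC by 1.27 ± 0.27 (adjusted p = 0.0347, limma).

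Of the 8 genes of signal transduction 0 passed the threshold for genotype in limma, with 1 at an unadjusted p under 0.05 (26.3% of all genes). Of the 8 estimates 7 were negative. *Jak1* was between 44.8 and 56.1 RPKM and *Tyk2* between 9.01 and 14.8 RPKM. Of 10 tested genes of nucleic acid sensing and its adaptors, 1 was called lower and 1 higher for genotype. Over all genes the shares were 3.37% lower and 6.2% higher. The gene called lower was *Tmem173*, which encodes STING (-1.12 ± 0.23, adjusted p = 0.0248, limma). The gene called higher was *Trim25*, a ubiquitin ligase that activates RIG-I (0.92 ± 0.21, adjusted p = 0.0325, limma). Of 7 negative regulators 0 were called for genotype by limma, with 3 at an unadjusted p under 0.05 (26.3% of all genes). *Socs3*, an inhibitor of JAK kinases that oncostatin M also induces, rose from iHB to iBEC by 1.89 ± 0.27 (adjusted p = 0.00680, limma).

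Over all genes, 6.2% were called higher and 3.37% lower for genotype, the shares to set beside each genotype count in this paragraph. Of the 42 other interferon-stimulated genes that were tested, 0 were called higher and 3 lower for genotype. These 3 were *Ifitm1* (-2.21 ± 0.57, adjusted p = 0.0475) and *Ifitm2* (-0.95 ± 0.24, adjusted p = 0.0457), membrane proteins that block viral entry, and *Nmi* (-0.83 ± 0.19, adjusted p = 0.0325), a binding partner of STAT proteins, all by limma and lower in 5 of 5. The median of the 42 was -0.18, close to that of the members. From iHP to iBEC in the libraries labelled L1L2_Alb, 5 of the 42 were called higher, against 3.16% of all genes, and 0 lower by limma. The 5 were led by *Ifitm3* (2.23 ± 0.33, adjusted p = 0.0208) and *Sp110* (1.85 ± 0.33, adjusted p = 0.0338). Both of these calls were lost when any 1 of the 4 libraries was left out, with adjusted p up to 0.199 for *Ifitm3* and 0.333 for *Sp110* by limma. The IFITM genes are close paralogs whose reads can be split between them, so that their levels are uncertain. Of 12 tested guanylate-binding proteins and immunity-related GTPases outside the members, 0 were called higher and 1 lower for genotype, *Iigp1* (-1.49 ± 0.29, adjusted p = 0.0190, limma). *Iigp1* rose from iHB to iBEC by 3.09 ± 0.36 (adjusted p = 0.00320, limma), while *Irgm1* fell by 1.35 ± 0.25 (adjusted p = 0.0200, limma), and *Tgtp1* and *Tgtp2*, near-identical genes with uncertain counts, were called lower with it. The call of *Irgm1* was lost without either L1L2_Alb iBEC library (adjusted p = 0.0592 and 0.0529, limma). Of 17 other genes of class I processing and presentation, 1 was called higher and 0 lower for genotype, *H2-M3*, a class I molecule that presents formylated peptides (0.80 ± 0.20, adjusted p = 0.0411, limma). Of these 8 calls for genotype in the pathway lists, those of *Il10rb* and *Iigp1* stood under 11 of 14 other settings, that of *Tmem173* under 10, those of *Trim25* and *Nmi* under 7, those of *Ifitm2* and *H2-M3* under 4 and that of *Ifitm1* under 2. The calls of *Ifitm1*, *Ifitm2* and *H2-M3* were lost when any 1 of the 4 libraries of a pair was left out, and the estimate for *Ifitm1* was -1.13 without iHP. That of *Nmi* was lost without either L1L2_Alb iBEC library, that of *Trim25* without the second of these and that of *Tmem173* without the first L1L2_Alb iHP library.

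The class I molecules had another order of levels than most members. *H2-K1*, a classical class I heavy chain, was at 263 and 559.8 RPKM in control and L1L2_Alb iHB, 250.5 RPKM against 356 and 446 RPKM in iHP, and 297 RPKM against 290.5 and 322 RPKM in iBEC. *B2m*, the light chain of class I, was at 631 and 630.4 RPKM in iHB, 553 RPKM against 391 and 556 RPKM in iHP, and 697 RPKM against 693.5 and 696 RPKM in iBEC. *Tap2*, the partner of TAP1, was at 15.4 and 8.96 RPKM in iHB, 10.4 RPKM against 4.75 and 7.03 RPKM in iHP, and 13.0 RPKM against 16.2 and 12.0 RPKM in iBEC. The heavy chain was thus higher in L1L2_Alb than in control in iHB and iHP, where *Tap2*, *Psmb8* and *Psmb9* were lower.

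Markers of leukocytes moved with the members in part. *Ptprc* was at 28.0 and 12.6 RPKM in control and L1L2_Alb iHB, 14.9 RPKM against 4.00 and 3.59 RPKM in iHP, and 9.17 RPKM against 8.67 and 9.82 RPKM in iBEC. It was highest in control iHB, as was the median of the members, and lowest in L1L2_Alb iHP, where that median was low too, but control iBEC, the lowest library by the median of the members, was in the middle of its range. All 8 neutrophil markers in the table were highest in control iHB, led by *S100a9* at 7494 RPKM and *S100a8* at 4433 RPKM. Their summed level was 14665 and 4718 RPKM in control and L1L2_Alb iHB, 9944 RPKM against 461 and 51.2 RPKM in iHP, and 3268 RPKM against 116 and 2613 RPKM in iBEC, and *Elane*, neutrophil elastase, was listed at 0 in the second L1L2_Alb iHP library. Of the 15 macrophage markers 2 were highest in control iHB. The summed level of the 15 was 3216 and 3381 RPKM in iHB, 2134 RPKM against 1159 and 2085 RPKM in iHP, and 2097 RPKM against 3914 and 5088 RPKM in iBEC. *Lyz2* alone was at 1622 RPKM in control iHB and at 2019 and 2178 RPKM in L1L2_Alb iBEC. The 9 mesenchymal markers summed to 4611 and 1627 RPKM in iHB, 2867 RPKM against 735 and 1190 RPKM in iHP, and 2600 RPKM against 3453 and 1626 RPKM in iBEC.

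T and NK cell markers summed to 0.0588 to 8.32 RPKM over 11 genes, with *Cd3e* at 0 in every library. Most of that sum was *Nkg7*, a granule protein of NK and cytotoxic T cells, at 5.96 and 3.04 RPKM in control and L1L2_Alb iHB, 4.53 RPKM against 0.334 RPKM and a listed 0 in iHP, and 1.67 RPKM against a listed 0 and 0.567 RPKM in iBEC. It fell by 1.43 ± 0.32 in the libraries labelled L1L2_Alb (adjusted p = 0.0324, limma), lower in 5 of 5. *Siglech*, the marker of plasmacytoid dendritic cells, was at 1.26, 0.492 and 0.0251 RPKM in control iHB, iHP and iBEC. It was at 0 in all 5 libraries labelled L1L2_Alb. Of the 7 genes listed for B cells and plasmacytoid dendritic cells, *Bst1* made up nearly the whole sum of 58.6 to 969.8 RPKM. *Bst1* rose by 2.20 ± 0.20 in the libraries labelled L1L2_Alb (adjusted p = 0.00132, limma), higher in 5 of 5. The 9 endothelial markers summed to 5.00 to 32.8 RPKM. The 6 erythroid markers summed to 108 RPKM in control iHB and 1.57 to 69.5 RPKM in the other libraries. As for the labelled cell type, the hepatocyte genes *Alb* (524 to 6162 RPKM) and *Afp* (779 to 4219 RPKM) and the biliary genes *Krt19* (83.7 to 493 RPKM) and *Spp1* (428 to 23271 RPKM) were present in all 8 libraries. The 2 L1L2_Alb iBEC libraries stood at 116 and 2613 RPKM of summed neutrophil markers, with median member levels of 2.52 and 2.82 RPKM. The part of these other cells in the levels of the members was not tested.

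**Figure D5:**
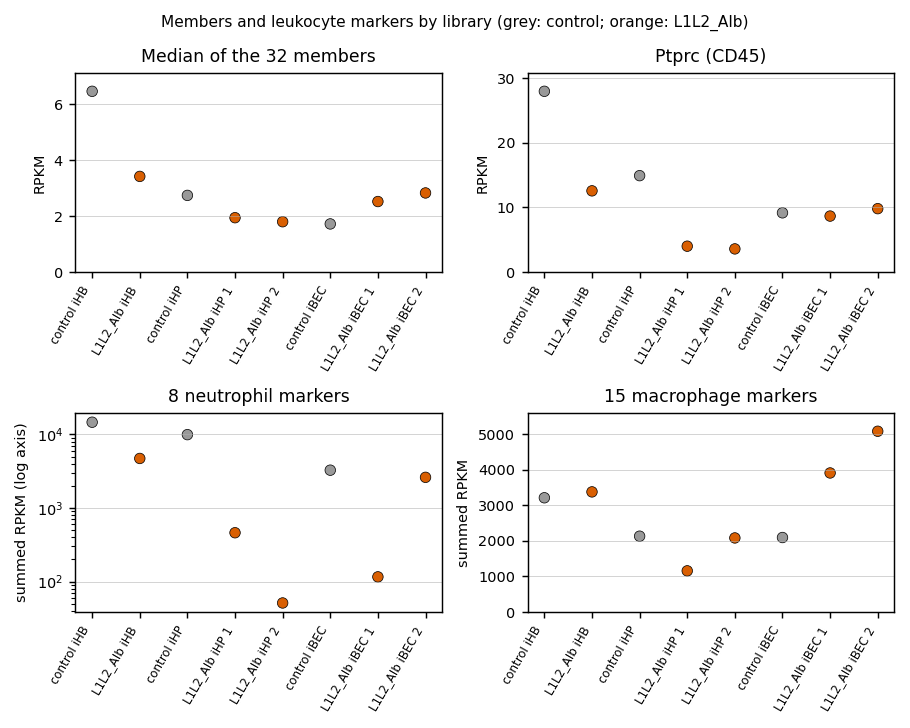
Median RPKM of the 32 members, RPKM of *Ptprc*, summed RPKM of 8 neutrophil markers (log axis) and summed RPKM of 15 macrophage markers in the 8 libraries (x axes; 1 point per library, grey control, orange L1L2_Alb). Control iHB is highest for the members, *Ptprc* and the neutrophil markers, whereas the second L1L2_Alb iBEC library is highest for the macrophage markers. Large parts of the sums are *S100a8* and *S100a9* for neutrophils and *Lyz2* for macrophages.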

How the data were processed

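RNA was measured in 8 libraries of cultured liver cells with an unstranded TruSeq kit, so that reads of overlapping genes on opposite strands cannot be told apart. The authors deposited 1 table of RPKM values per gene and library. No source used here names the unit. It was taken from the low values of short RNA genes, which are whole multiples of what 1 read is worth and so also give each library's depth. The submitters' processing notes name Bowtie 0.12.2 and mm8 with no role, so gene positions are given only for promoters of GRCm38.p6. From 23471 entries, 4 of repeated symbols were left out.

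Values were changed to log2(RPKM + 1), and limma 3.58.1 (R 4.3.3) was run with lmFit and a trended eBayes on the 13421 genes whose mean over the libraries reached 1 RPKM, 27 of the 32 members among them. The p-values of single contrasts are two-sided, and those of the F test have no direction. Calls rest on p-values adjusted by the Benjamini-Hochberg method over all genes tested, with a threshold of 0.05. Unadjusted p-values are named as such. Genotype and stage effects were fitted additively on 8 libraries, the other contrasts on the 6 conditions. Differences within a stage, where there is 1 control library, were described and not tested. Reads of 25 members were recovered as whole numbers (tolerance 0.01), with 3 reads as the floor, and were not fitted with a count model. Reads were recovered only for members and genes of the lists, and 156 of these in iHP and 157 in iBEC had at least 10 reads in the pair. Over them, the 2 libraries of a pair differed by more than counting noise (chi-square per degree of freedom of 454 in iHP and 1006 in iBEC). Other genes were not included. The procedure was tested on simulated data. The members and gene lists were chosen with earlier results of these data known. All members are named, and from each pathway list the genes past the threshold, at most 4 by size, with the receptors, Jak1, Tyk2, B2m, H2-K1, Psmb10, Tap2 and the constitutive subunits whatever their values. Single values of 2 further listed genes are not reported here. The marker lists were used for description. Alternatives are given with the limits. Tables were made with pandas 2.3.3 and numpy 2.4.6 in Python 3.11.15, and plots with matplotlib 3.10.9.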

Additional observations from a re-analysis of the deposited data

Results flagged for a closer look

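*Oasl1*, an OAS-like antiviral protein, was lower than the control in both L1L2_Alb iHP libraries, by a mean of -0.53 on the log2(RPKM + 1) scale, and higher than the control in both L1L2_Alb iBEC libraries, by a mean of 0.50. Its mean level was below 1 RPKM and the difference between the stages was not tested. It rested on 53 reads in control iHP against 24 and 3 reads in L1L2_Alb iHP, and on 7 reads in control iBEC against 22 and 37 reads in L1L2_Alb iBEC. *Oas2*, *Oas3* and *Oasl2*, which were tested, went the same ways in each library, and the difference did not pass the threshold for any of them.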

How the results depend on the processing

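The number of members called for genotype, 2 in the fit as reported, was 1 with eBayes without trend, with the mean of a pair as 1 library and with a pseudocount of 0.1, was 0 with no filter on low values and without iHB, iHP or iBEC, and ranged from 0 to 1 when 1 library of a pair was left out. All genes called for genotype, 1284, came to 686 with no filter, 326 without iHB, 132 without iHP and 2215 at an adjusted p under 0.1, and to 793 to 1227 with 1 library left out. From iHB to iBEC, 3 members became 1 with a mean of at least 5 RPKM or upper-quartile scaling, 0 with no filter, and 0 to 7 with 1 library left out. For L1L2_Alb iBEC against L1L2_Alb iHP, 1 member became 2 with a mean of at least 5 RPKM, with upper-quartile scaling and with a replicate block, and 0 with no filter, with quantile normalization and with any library left out. Deviations of the libraries numbered 1 from their condition means had a correlation of -0.0216 across genes between iHP and iBEC. With only 1 pair in each stage, this cannot decide whether the replicate numbers pair the samples.

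Counts of members past 2-fold also moved, and the share of all genes in the same setting is given in brackets. In iHB, 2 became 7 with a pseudocount of 0.1 (12.7%), 0 with quantile normalization (6.65%), 0 with a mean of at least 5 RPKM (7.55%) and 16 at 1.5-fold (19.5%). In iHP, 3 became 6 with a pseudocount of 0.1 (10.6%), 1 with quantile normalization (6.997%) and 7 at 1.5-fold (14.0%). Higher in both iBEC libraries were 0, then 3 with a pseudocount of 0.1 (6.48%) and 6 at 1.5-fold (11.6%). Control iHP below control iHB counted 5, then 14 with a pseudocount of 0.1 (3.36%), 3 with upper-quartile scaling (0.991%) or quantile normalization (1.08%), 2 with a mean of at least 5 RPKM (1.39%) and 20 at 1.5-fold (9.09%). Control iBEC below control iHB counted 14, then 4 with a mean of at least 5 RPKM (14.8%), and control iBEC below control iHP 3, then 6 with a pseudocount of 0.1 (13.2%), 1 with quantile normalization (5.89%), 1 with a mean of at least 5 RPKM (9.09%) and 9 at 1.5-fold (24.3%). These counts are of 27 members, or of 12 with a mean of at least 5 RPKM. The cause of these moves was not tested, except that a mean of at least 5 RPKM tests fewer members. Of the values of single genes given with a test, taken over these settings, 480 kept their side of the threshold, 186 lost their call, 7 gained one and 0 reversed in direction. The depth limits statements on *Oasl1*, *Gbp3* and *Ifi44*, which rested on 3 reads or fewer in 1 library (*Oasl1*, *Gbp3*) or 2 libraries (*Ifi44*). It also limits those on *Mx1*, which was listed at 0 in the second L1L2_Alb iHP library and whose reads were not recovered.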
